A study of Mus musculus with 12 samples.

Results

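The genes described here are 8 water and sodium transport genes of the renal collecting duct: the water channels Aqp2, Aqp3 and Aqp4, the vasopressin receptor Avpr2, the epithelial sodium channel subunits Scnn1a, Scnn1b and Scnn1g, and the sodium pump regulator Fxyd4. They were taken by gene name from the arrays, with every probe of each gene, which gave 11 probes for 8 genes among 41174 probes for 27670 gene names. They were chosen by their signal in knockout against wild type kidneys, the contrast described first, so their kidney differences are given as a description with no test.

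RNA came from hearts and kidneys of mENT1 knockout and wild type mice. Both genotypes had the FVB/N background. mENT1, the product of Slc29a1, is a membrane transporter through which adenosine and other nucleosides equilibrate. The groups were knockout kidney, wild type kidney, knockout heart and wild type heart, with 3 one-colour (Cy3) Agilent arrays each, lettered a to c. The labels do not say which arrays share a mouse, and give no age, no sex, no part of the kidney and no account of how the allele was made.

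Principal cells of the collecting duct set the final water and sodium content of urine. Vasopressin binds the receptor Avpr2 on their blood side, cyclic AMP rises, and vesicles carrying Aqp2 fuse with the urinary membrane. Water then leaves through Aqp3 and Aqp4 on the blood side. Sodium enters through the epithelial sodium channel, built of the alpha, beta and gamma subunits encoded by Scnn1a, Scnn1b and Scnn1g, and is pumped out by the sodium pump, which Fxyd4 modulates in this segment.

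All values are log2 signals relative to the 75th percentile of the probes of the same array, which lay at an intensity of 451 to 878. A value of 1 is thus a doubling of that percentile. Levels of different probes are not comparable, because probes differ in how they bind. A difference or change is the knockout mean less the wild type mean, and SE is its standard error in limma, from 3 arrays against 3.

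Several facts about the arrays bear on every result. Slc29a1 was lower in the arrays labelled knockout. It was at -1.43, -1.30 and -1.43 in knockout kidneys and at 1.51, 1.27 and 1.62 in wild type, a change of -2.85 (SE 0.17, limma adjusted p = 0.0072). The change in heart was -2.08 (SE 0.26, limma adjusted p = 0.038). The groups lay apart in both tissues, but the calls did not hold under every alternative in limma. In kidney the adjusted p was 0.690 with normexp background correction, 0.098 with the replicate letter as a block, 0.093 without wild type a and 0.052 without wild type c. In heart it was 0.057 to 0.092 with quantile scaling or another filter on dim probes, 0.066 with the letter as a block, and 0.117, 0.103, 0.172 and 0.203 without knockout a or wild type a, b or c. The deposited table of processed values carries the opposite genotype labels: each of its 12 columns correlated at 0.9998 or above with the scanner array of the same tissue and letter but the other genotype. Every direction below follows the labels of the scanner files and would be reversed under those of the table. Signal of Xist, which is expressed from the inactive X, was found on knockout kidney a and knockout hearts a and b, and on none of the other 9 arrays, which had signal of the Y-linked genes Ddx3y, Eif2s3y, Kdm5d and Uty. With Xist on 2 knockout hearts but 1 knockout kidney, the same 3 mice cannot have given both knockout tissues unless a sample was mixed up. Knockout kidney a was alone on its slide, slide 2 held knockout kidneys b and c with wild type kidneys a and b, and wild type kidney c shared slide 3 with the 3 knockout hearts. The wild type hearts filled slide 4, so in heart the slide cannot be told apart from the genotype. Clock genes also split the knockout kidneys: Dbp, a transcription factor with a strong daily rhythm, was at 6.09 in knockout kidney a, 2.07 in b and 2.15 in c, against 6.08 to 6.80 in wild type. In heart 15 clock genes were tested and 0 passed in limma. The mean was lower in knockout for 12 and higher for 3, where 40.8% of all heart probes were higher. The groups lay apart for 8 with knockout lower and 1 with knockout higher, beside 14% and 8.77% of all heart probes.

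By proximal tubule and heart muscle markers, which do not cover other tissues, each array carried its labelled tissue. Markers of other tissues in the hearts are given below. The summed proximal tubule markers lay at 8.79 to 9.46 in the kidneys and at 4.34 to 4.70 in the hearts, and the heart muscle markers at 9.05 to 9.77 in the hearts and at -1.14 to -0.33 in the kidneys.

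Promoter stretches are shown of Aqp2 and Avpr2, which were higher in every knockout kidney, and of Aqp3, which was not, because these genes serve one pathway. Each is the 250 bases before the annotated start of the gene, 5′ to 3′ on the gene's strand, from RefSeq on GRCm38. RefSeq promoter entries matched 6 of the 8 genes, all but Aqp4 and Scnn1a. Capitals mark matches to any of 4 motifs.
Aqp2 (chr15:99578806-99579055, plus strand): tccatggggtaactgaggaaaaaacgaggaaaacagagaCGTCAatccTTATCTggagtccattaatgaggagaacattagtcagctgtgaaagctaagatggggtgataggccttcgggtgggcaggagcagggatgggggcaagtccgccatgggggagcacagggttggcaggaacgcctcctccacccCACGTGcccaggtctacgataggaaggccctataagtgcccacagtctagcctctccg
Avpr2 (chrX:73891852-73892101, plus strand): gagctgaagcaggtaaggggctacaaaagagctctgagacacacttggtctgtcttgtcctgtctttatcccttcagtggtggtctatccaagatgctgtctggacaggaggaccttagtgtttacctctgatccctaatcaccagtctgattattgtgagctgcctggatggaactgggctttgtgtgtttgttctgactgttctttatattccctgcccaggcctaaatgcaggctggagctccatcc
Aqp3 (chr4:41098184-41098433, minus strand): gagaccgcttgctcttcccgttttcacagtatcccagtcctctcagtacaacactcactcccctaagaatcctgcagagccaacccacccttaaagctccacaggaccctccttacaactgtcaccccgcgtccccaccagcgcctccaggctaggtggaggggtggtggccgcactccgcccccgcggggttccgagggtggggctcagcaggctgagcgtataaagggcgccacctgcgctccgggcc

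The motifs, searched on both strands, were TGACG, a core of the cyclic AMP response element; CACGTG, the E-box that clock factors bind; TGGAAA, a core of the tonicity-responsive element; and AGATAA, which factors of the Gata family bind. They were chosen after the Aqp2 sequence had been read, so the matches describe the letters only. The Aqp2 stretch held TGACG as CGTCA at 211 to 207 bases before the start, AGATAA as TTATCT at 202 to 197 bases, and CACGTG at 58 to 53 bases, and none of these overlapped. Among all 32851 promoter stretches of this length, 17.8% held TGACG, 6.02% CACGTG, 18.6% TGGAAA and 9.99% AGATAA. The stretches of Avpr2 and Aqp3 held none of the 4 motifs, nor did those of Scnn1b, Scnn1g and Fxyd4.

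Probes of 60 bases measured each gene, at positions that the files give on mm7. Those of Aqp2 and of Scnn1a that cover more of the genome than their own length, and so cross an exon junction, are shown because they match the spliced message.
Aqp2 probe A_51_P492298 (mm7 chr15:99567392-99568368): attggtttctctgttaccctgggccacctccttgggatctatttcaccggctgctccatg
Scnn1a probe A_52_P139395 (mm7 chr6:125369357-125369561): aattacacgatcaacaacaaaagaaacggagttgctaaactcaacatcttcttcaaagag

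Aqp2, the vasopressin-regulated water channel of the urinary membrane, was higher in every knockout kidney than in any wild type kidney. Its signal was 5.36, 4.72 and 5.11 in knockout kidneys a, b and c and 4.10, 3.38 and 3.84 in wild type. The means were 5.06 ± 0.32 (SD, n = 3) and 3.77 ± 0.36 (SD, n = 3), a difference of 1.29 (SE 0.26), or 2.44-fold. The lowest knockout value lay above the highest wild type value. Within slide 2, with 2 arrays of each genotype, the difference was 1.17.

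Avpr2, the receptor through which vasopressin acts on these cells, was also higher on all 3 knockout arrays. It was at 1.69, 1.24 and 1.52 in knockout and at 0.88, 0.86 and 0.73 in wild type, with SDs of 0.23 and 0.08. The difference of 0.66 (SE 0.18), 1.58-fold, was smaller than that of Aqp2, and within slide 2 it was 0.51.

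Aqp4, a water channel of the blood side, had 3 probes, and on each the 3 knockout kidneys exceeded the 3 wild type kidneys. The brightest, A_51_P419319, read 1.76, 0.81 and 0.46 in knockout and -1.54, -1.22 and 0.01 in wild type. Its difference was 1.93 (SE 0.49), 3.80-fold, and it was 2.02 within slide 2. The other probes, A_52_P25710 and A_52_P625527, differed by 1.62 (SE 0.43) and 1.64 (SE 0.48). Wild type kidney c stood above the other wild type kidneys on all 3 Aqp4 probes, at 0.01, -1.15 and -0.49 in the order named. Knockout kidney a stood highest on all 3, and without it the differences were 1.55, 1.20 and 1.16.

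Aqp3, the other blood-side water channel of principal cells, overlapped between the genotypes. It was at 5.58, 4.72 and 5.04 in knockout and at 5.11, 5.52 and 4.85 in wild type. The difference was -0.05 (SE 0.28), smaller than the spread within either group (SD 0.43 and 0.34). Knockout kidneys b and c and wild type kidneys a and b, on slide 2, differed by -0.44.

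**Figure D1:**
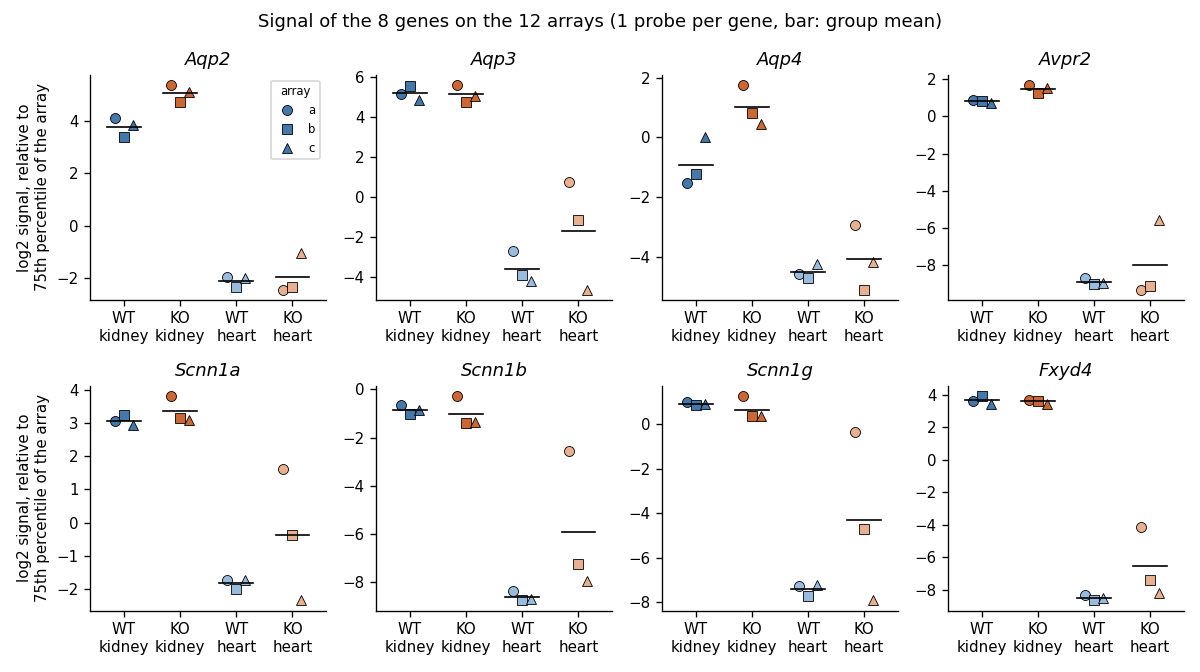
Log2 signal, relative to the 75th percentile of the array, of 1 probe (the brightest in kidney) of each gene on the 12 arrays. Points are arrays, with the shape giving the letter, and bars are group means; knockout and wild type kidneys are apart for Aqp2, Aqp4 and Avpr2 and overlap for the other 5 genes.

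The epithelial sodium channel subunits overlapped between the genotypes. Scnn1a, the alpha subunit, was at 3.81, 3.16 and 3.09 in knockout and at 3.05, 3.23 and 2.92 in wild type on probe A_51_P213691, a difference of 0.29 (SE 0.24). Its junction probe was dimmer, at -4.26, -5.51 and -5.90 against -5.93, -5.62 and -5.96, and differed by 0.61 (SE 0.42). On both probes knockout kidney a was the highest of the 6 kidneys, while b and c lay among or near the wild type values. Within slide 2, which lacks that array, the differences were -0.017 and 0.065.

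Scnn1b, the beta subunit, read -0.27, -1.41 and -1.35 in knockout and -0.66, -1.01 and -0.84 in wild type. Scnn1g, the gamma subunit, read 1.26, 0.34 and 0.34 in knockout and 1.003, 0.86 and 0.88 in wild type. Both followed one order: knockout kidney a was the highest of the 6, and b and c were the lowest. The differences of the means were -0.17 (SE 0.33) for Scnn1b and -0.26 (SE 0.28) for Scnn1g. Within slide 2 they were -0.54 and -0.59, and without knockout kidney a -0.54 and -0.57. The knockout arrays spread more widely than the wild type arrays, with SDs of 0.64 and 0.17 for Scnn1b and of 0.53 and 0.08 for Scnn1g. The probes of Scnn1g and Scnn1b lie near each other on mm7, at chr7:117690298-117690357 and chr7:117842335-117842394.

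Fxyd4, the principal cell regulator of the sodium pump, varied least. It was at 3.68, 3.63 and 3.46 in knockout and at 3.62, 3.93 and 3.42 in wild type, a difference of -0.07 (SE 0.19).

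Counted over the brightest probe of each gene, 4 of the 8 had a higher mean in knockout kidney, beside 46.6% of the 25804 probes tested in kidney. The groups did not overlap for 3 genes, all of them higher, and 10.3% of all probes tested lay apart in that direction and 11.2% in the other. Because this contrast chose the genes, nothing is read from these counts. In the kidney comparison as a whole, 25 probes (0.0969%) passed an adjusted p under 0.05 in limma, and 3435 (13.3%) had an unadjusted p under 0.05. The median difference of the 8 genes was 0.12, and that of all probes tested was -0.03. The median of the 8 fell to the other side of 0 without knockout kidney a (-0.03) and within slide 2 (-0.13). In whole tissue, more cells of a type and more RNA per cell cannot be told apart.

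**Figure D2:**
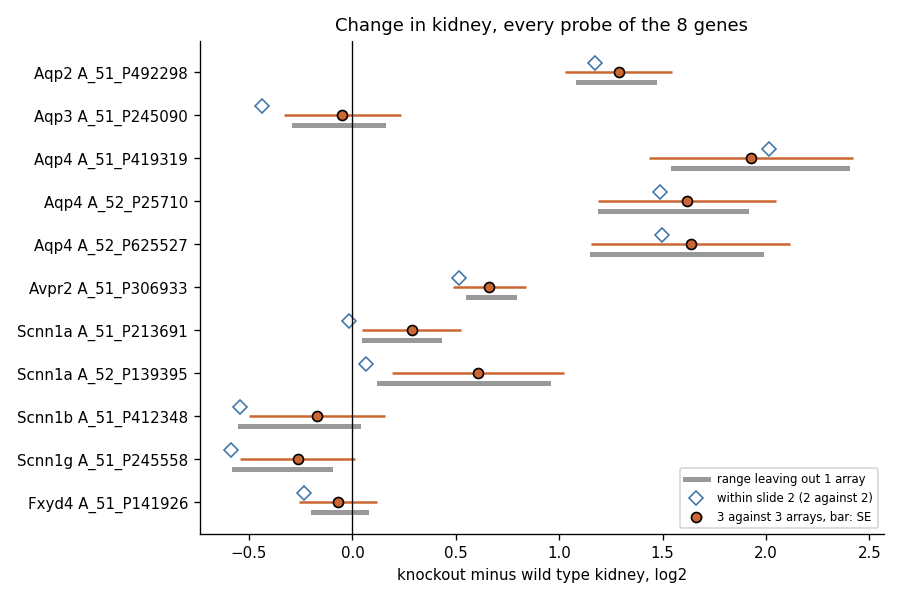
Knockout minus wild type kidney difference (log2) of all 11 probes, with the SE, the difference within slide 2 (diamonds, 2 arrays against 2) and the range on leaving out 1 array (grey bars). The Aqp2, Aqp4 and Avpr2 probes stay above 0 throughout. Leaving out arrays could not change this, because their knockout and wild type kidneys do not overlap. The slide 2 value of Scnn1a A_51_P213691 is -0.017.

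Genes that act on the sodium channel were then read from a list of 14, all tested in kidney. The counts of this and the later kidney lists stand beside those of all kidney probes tested. Of these, 46.6% had the higher mean in knockout and 13.3% an unadjusted p under 0.05 in limma, in either direction. By limma 0 passed an adjusted p under 0.05, and 1 was higher and 0 lower at an unadjusted p under 0.05. The knockout mean was higher for 5 and lower for 9, with a median of -0.15, and of -0.24 without knockout kidney a. Sgk1, the aldosterone-induced kinase that keeps the channel at the membrane, was at 4.55, 3.46 and 3.40 in knockout and at 3.14, 2.69 and 3.36 in wild type, a difference of 0.74 (SE 0.36, adjusted p = 0.433). Spint2, which inhibits channel-cleaving proteases, differed by -1.18 (SE 0.61, adjusted p = 0.466), with its highest value, -2.84, in wild type kidney b.

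Low values on knockout kidneys b and c, as for Scnn1b and Scnn1g, were also seen for some regulators, named here after their values had been seen. Over all kidney probes tested, knockout kidneys b and c were more alike (r = 0.993) than a and b (r = 0.957) or a and c (r = 0.956). How many probes share this order was not counted, so no link between these genes is read from it. Usp2, a deubiquitinase that acts on the channel and varies with the clock, was at 2.27, 0.65 and 0.94 in knockout and at 1.77 to 1.99 in wild type. Tsc22d3, the glucocorticoid-induced leucine zipper protein, was at 2.41, 1.10 and 1.46 against 1.84 to 2.47. Per1, a clock gene that acts on Scnn1a transcription, was at 1.65, -0.49 and -0.77 against 0.24 to 0.37. For all 3, knockout kidneys b and c were the lowest of the 6 kidneys, and knockout a was the highest for Usp2 and Per1 but not for Tsc22d3. Dbp and Arntl, the clock genes with the largest differences, stood apart in b and c and not in a. Arntl went from -2.47 to -1.49 in wild type and -1.64 in knockout a to 0.996 and 1.30. The part of the clock, the slide or the sex in the values of the channel subunits was not tested.

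**Figure D3:**
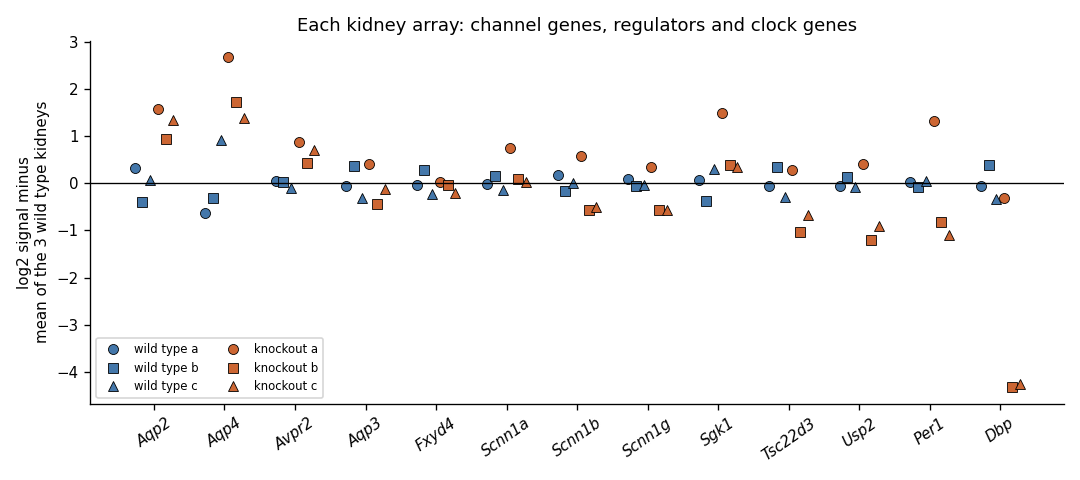
Signal of each kidney array minus the mean of the 3 wild type kidneys (log2), for the 8 genes and 5 regulators and clock genes chosen after their values were seen. Aqp2, Aqp4 and Avpr2 are above the wild type arrays on all 3 knockout arrays, whereas Scnn1b and Scnn1g are high on knockout a and low on b and c.

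The vasopressin path below Avpr2 gave a list of 17 genes, covering cyclic AMP formation, protein kinase A, and the transport and fusion of Aqp2 vesicles. By limma 0 passed, with 3 higher and 1 lower at an unadjusted p under 0.05. The knockout mean was higher for 13 and lower for 4, with a median of 0.09. Pde4d, a phosphodiesterase that breaks down cyclic AMP, was at -2.40, -1.74 and -2.31 in knockout and at -3.88, -4.15 and -2.83 in wild type, a difference of 1.47 (SE 0.38, adjusted p = 0.205). Creb1, a transcription factor that protein kinase A activates, differed by 0.86 (SE 0.26, adjusted p = 0.252). The adenylate cyclase Adcy6, at 2.97, 2.22 and 2.30 against 2.24, 2.23 and 2.11, and the vesicle motor Myo5b, which differed by 0.15, overlapped between the genotypes. Without knockout kidney a, 10 of the 17 were higher and the median was 0.05.

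Other genes of principal cells and the collecting duct were a list of 18, of which 17 were tested. None passed in limma, and 4 were higher and 0 lower at an unadjusted p under 0.05. The knockout mean was higher for 11 and lower for 6, and the median was 0.11, or 0.039 within slide 2. The groups lay apart for 5 of the 17, all higher, beside 10.3% of all probes apart in that direction and 11.2% in the other. Elf5, a transcription factor of principal cells, was at 0.59, -0.18 and -0.24 in knockout and at -1.20, -0.43 and -1.39 in wild type, a difference of 1.06 (SE 0.34, adjusted p = 0.263). Npnt, an extracellular matrix protein of the ureteric bud, differed by 0.97 (SE 0.25, adjusted p = 0.214). Hsd11b2, the enzyme that guards the mineralocorticoid receptor from cortisol-like steroids, differed by -0.04, and Hoxb7 by -0.16. Intercalated cells, the acid-base cells of the same duct, were higher for 10 of 12 genes, with a median of 0.31 and 0 passing in limma (2 higher and 0 lower at an unadjusted p under 0.05). Their median was 0.10 without knockout kidney a and 0.13 within slide 2. Slc4a1, their chloride-bicarbonate exchanger, differed by 0.71 (SE 0.21, adjusted p = 0.241) and the transcription factor Foxi1 by 0.69 (SE 0.30, adjusted p = 0.397).

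Of 8 genes for urea and for the organic solutes that protect medullary cells against high salt, 6 were higher, with a median of 0.56. By limma 0 passed, and 4 were higher and 0 lower at an unadjusted p under 0.05, beside 13.3% of all kidney probes in either direction. Slc6a12, the betaine transporter, was at 1.68, 0.99 and 1.69 in knockout and at 0.32, 0.02 and 0.25 in wild type, a difference of 1.25 (SE 0.24, adjusted p = 0.134). Slc5a3, the myo-inositol transporter, differed by 0.89 (SE 0.33, adjusted p = 0.320). Nfat5, the transcription factor that responds to tonicity, overlapped, with a difference of -0.10. Within slide 2 the median of the list was 0.39.

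Among the other aquaporins 5 of 6 were tested, and 0 passed in limma (1 higher and 0 lower at an unadjusted p under 0.05). The mean was higher in knockout for 2 and lower for 3, with a median of -0.08. Aqp5, whose probe lies close to that of Aqp2 on mm7 (chr15:99579945-99580003), differed by 0.68 (SE 0.27, adjusted p = 0.357), with values of -3.16, -3.22 and -2.40 against -3.85, -3.36 and -3.60. Aqp6, in the same cluster (chr15:99590187-99590246), is a vesicle channel of intercalated cells and was counted in their list above, not in this one. It differed by 0.51 with overlap. Aqp8 differed by 0.81 (SE 0.84, adjusted p = 0.706). The sodium pump and other FXYD genes numbered 7 tested of 8, with 0 passing, 0 at an unadjusted p under 0.05 in either direction, and a median of 0.02.

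Values of markers of other kidney cells also stood apart or leaned one way by genotype, as follows. Summed podocyte markers were at 3.04 to 3.74 in knockout and 2.04 to 2.67 in wild type, with 5 of 5 genes higher, and summed urothelium markers at 1.81 to 2.15 against 0.95 to 1.13, with 7 of 7 higher. Macrophage markers summed to 3.94 to 4.70 against 4.73 to 5.26, with 5 of 6 lower, and proximal tubule markers to 8.79 to 8.92 against 8.82 to 9.46, with 8 of 9 lower. For thick limb and distal tubule markers 6 of 7 were lower while the sums overlapped, at 7.29 to 7.38 against 7.18 to 7.73. By limma 0 genes of these 5 lists passed, with 4, 6, 0, 0 and 0 higher and 0, 0, 4, 1 and 1 lower at an unadjusted p under 0.05, in the order given. Of all kidney probes tested, 46.6% had the higher mean in knockout and 13.3% an unadjusted p under 0.05 in limma. The part of tissue makeup in the values of Aqp2, Aqp4 and Avpr2 was not tested.

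**Figure D4:**
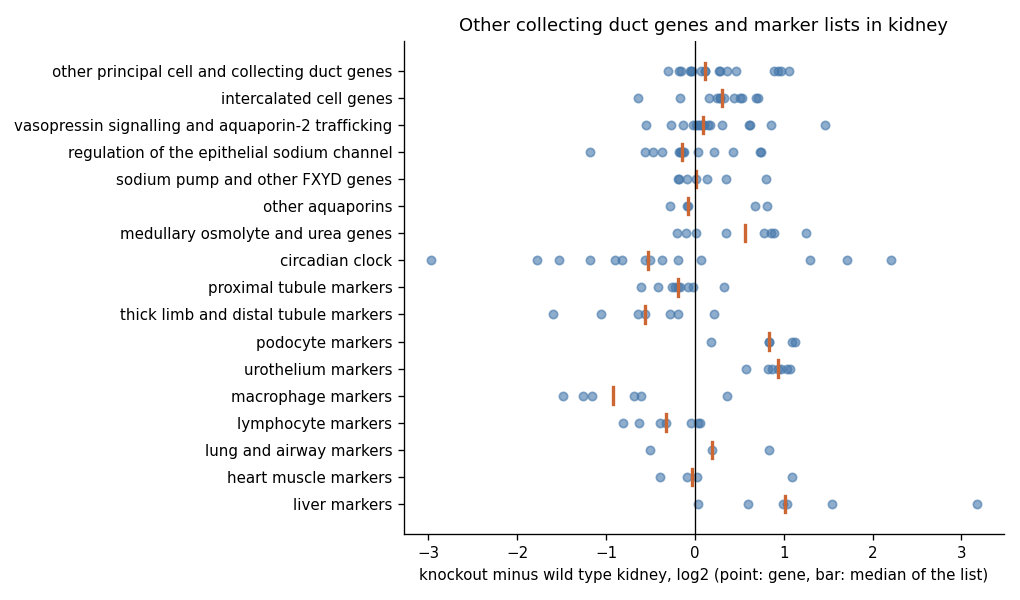
Knockout minus wild type kidney difference (log2) of each tested gene of 17 lists; points are genes and orange bars list medians. The urothelium and podocyte medians lie at 0.94 and 0.84, the osmolyte and urea median at 0.56 and the macrophage median at -0.92.

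For each gene the closest profiles over the 6 kidneys were sought among 21308 probes with a gene name, as the smallest root mean square difference after centring on the mean. For Aqp2 these were Spag5 (0.14) and Slc6a12 (0.16), the betaine transporter above. Those of Avpr2 were Vpreb1 and Elfn1 (both 0.06), and those of Aqp4 were Hcfc1 (0.11) and Zbtb38 (0.16). Scnn1b was followed most closely by the carnitine transporters Slc22a5 (0.04) and Slc22a21 (0.05), and Scnn1g by Col4a5 (0.03) and Sgsm1 (0.05). The nearest to Scnn1a were the tight junction genes Cgn and Ildr1 (both 0.05), to Aqp3 Crygc and Cryga (both 0.06), and to Fxyd4 Emc7 (0.01) and Mitd1 (0.03). Small differences are easier to reach for a gene that varies little, such as Fxyd4, whose own root mean square deviation over the 6 kidneys was 0.17 against 1.14 for Aqp4.

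Wild type hearts served as the reference tissue. All 8 genes were higher in wild type kidney, which is given as a description because they were chosen as kidney genes. Aqp3 was 427-fold, Aqp2 58.7-fold, Scnn1a 29.6-fold and Aqp4 12.1-fold higher. Avpr2, Scnn1b, Scnn1g and Fxyd4 were not well above background on any wild type heart, and their kidney signals were at least 183-fold, 57.9-fold, 195-fold and 1305-fold higher than the lowest signal well above background on the heart arrays. Aqp2 was above background on all 6 hearts, at -2.43, -2.34 and -1.05 in knockout and at -1.97, -2.33 and -1.997 in wild type.

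In heart the genotypes were compared on arrays outside the kidney contrast that chose the genes. The genes were chosen with earlier results of these data known, so these arrays are not fully independent of the choice. Of the 11 probes 6 were tested, for Aqp2, Aqp3, Aqp4 and Scnn1a, and 0 passed an adjusted p under 0.05 in limma, beside 123 of 26175 probes (0.47%) overall. At an unadjusted p under 0.05 there were also 0, beside 16.4% of all probes. The genotypes lay apart on 0 of the 6 probes, beside 8.77% of all probes apart with knockout higher and 14% with knockout lower. All 4 genes had the higher mean in knockout, as had 40.8% of all probes, but for Aqp4 this held on 2 of its 3 probes, and Aqp2 fell to the other side under median scaling (-0.0060).

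Aqp3 was at 0.73, -1.15 and -4.61 in knockout hearts a, b and c and at -2.69, -3.86 and -4.18 in wild type, a change of 1.90 (SE 1.28, adjusted p = 0.439). Scnn1a was at 1.62, -0.36 and -2.34 against -1.72, -2.004 and -1.73, a change of 1.46 (SE 0.91, adjusted p = 0.413). In both, knockout heart a was the highest, b was next, and c was the lowest of the 6 hearts. Without knockout heart c, Aqp3 changed by 3.37 (adjusted p = 0.036) and Scnn1a by 2.45 (adjusted p = 0.049), and 3311 probes passed in all, while without a the changes were 0.70 and 0.47 (adjusted p = 0.781 and 0.731). Knockout hearts a and b had Xist signal, whereas knockout c and the wild type hearts had signal of the Y-linked genes. Without c, therefore, the genotype cannot be told apart from the sex. Scnn1g, not tested in heart, was above background on knockout hearts a and b alone, at -0.37 and -4.69.

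Aqp2 changed by 0.16 in heart (SE 0.38, adjusted p = 0.827) and Aqp4 by 0.45 on its brightest probe (SE 0.51, adjusted p = 0.634). Avpr2 was above background on 1 heart, knockout c, at -5.56, where the other 5 lay at -9.30 to -8.68. That heart also had the highest Aqp2 of the 6. Scnn1b and Fxyd4 were above background on knockout heart a alone, at -2.55 and -4.12.

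Markers of other tissues differed between the hearts as well. Summed lung and airway markers in the knockout hearts were at 8.06, -1.55 and -2.12, and in wild type at 1.5004, -3.13 and -3.07. Summed lymphocyte markers were at 6.40, 7.45 and 0.79 in knockout and at 0.71, -0.30 and -0.11 in wild type. Krt5, a keratin of basal epithelium from the list of urothelium markers, was at 3.27 and 2.89 on knockout hearts a and b and at -5.85 on c, against -6.82 to -4.72. Of the 4 urothelium genes tested in heart, 2 had the higher mean in knockout and 2 the lower, with a median change of 0.04. The part of these markers in the heart values of Aqp3, Scnn1a and Scnn1g was not tested.

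**Figure D5:**
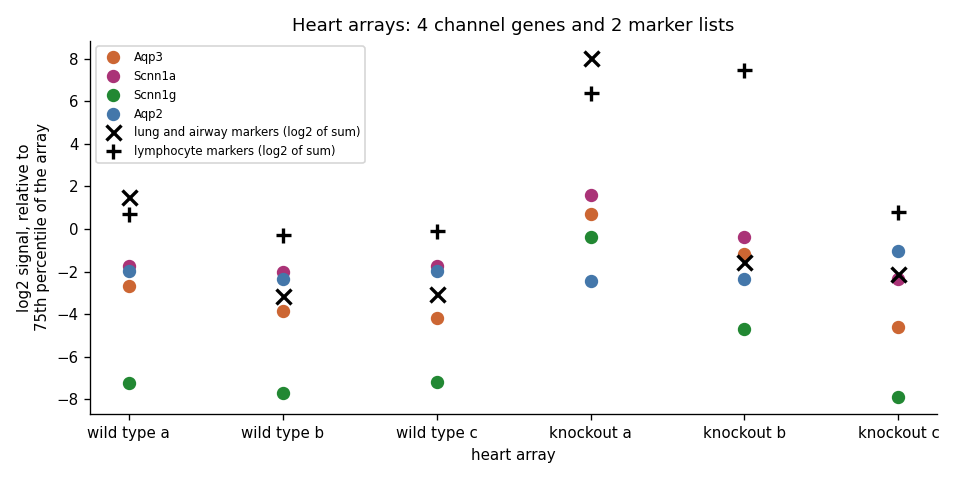
Log2 signal of Aqp3, Scnn1a, Scnn1g and Aqp2 on the 6 heart arrays, with the summed lung and airway markers and the summed lymphocyte markers, all relative to the 75th percentile of the array. Scnn1g, Aqp3 and Scnn1a are highest on knockout hearts a and b, where the summed lymphocyte markers are at 6.40 and 7.45, and Aqp2 is highest on knockout heart c.

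Of the related lists, 2 genes passed in heart. Car2, the carbonic anhydrase of intercalated cells and of many other cells, rose by 1.06 (SE 0.14, adjusted p = 0.043), at 0.77, 0.60 and 0.89 against -0.20, -0.32 and -0.41. Aqp9, a channel for water and small solutes, was at -5.67, -5.40 and -5.33 in knockout and not well above background on any wild type heart. It was thus at least 2.34-fold higher (adjusted p = 0.038), and it entered the test through the knockout hearts alone. Without knockout heart a neither passed. In the lists for vasopressin signalling (17 tested), sodium channel regulation (11) and other principal cell genes (12) 0 passed, with 0, 0 and 4 higher and 1, 3 and 0 lower at an unadjusted p under 0.05, beside 16.4% of all probes. Without knockout heart c, 4 of the 12 principal cell genes and 2 of the 11 regulators passed. In that subset, too, the genotype cannot be told apart from the sex.

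The kidney difference minus the heart difference was 1.13 for Aqp2, 1.48 for Aqp4 (brightest probe), -1.95 for Aqp3 and -1.17 for Scnn1a, given as a description. Over all probes tested in both tissues 103 of 24179 (0.426%) passed for this contrast in limma, and 60 passed when the spread was estimated over all probes on the array.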

How the data were processed

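The authors deposited 12 scanner files of spot intensity. Per the file headers the software was Feature Extraction 9.5.3.1, and per the submitters' processing notes 9.1. They also deposited a table of log2 values that they had centred per tissue; as an alternative, its columns were matched to the scanner arrays whose values they followed. Processed signals, already background-subtracted per the file headers, were set to log2 and shifted by the 75th percentile of each array. Spots marked as outliers were left out and spots of a probe averaged. No member spot was marked or saturated. Probes well above background on all 3 arrays of a group were fitted per tissue with limma 3.58.1 in R 4.3.3, with Benjamini-Hochberg adjustment over all of them, and called at an adjusted p under 0.05. The fits were tested on simulated data. The p-values set a difference against the spread between arrays of a group, moderated over the probes tested. Sex or slide differed within some groups, so this spread is not between animals alone. With 3 arrays against 3, an exact permutation test cannot give a two-sided p below 0.1. Gene names came from RefSeq by accession, symbol or synonym, and 8455 probes kept the file's name. Each list gene was read from 1 probe, the brightest of those tested in that tissue. Other probes of list genes, such as those of Pde4d, which has 4 in all, are not given. List genes are named by rule: the called genes, up to 4 per direction, otherwise the pair that differed most; the exceptions, Adcy6, Myo5b, Hsd11b2, Hoxb7, Nfat5, Aqp6, Usp2, Tsc22d3 and Per1, were added after their values were seen. In heart, arrays with the same letter deviated together (r = 0.36, 0.15 and 0.25), but the labels name no pairs, and the main heart fits did not pair them. With the letter as a block, 0 members passed in heart, and the SE of heart Aqp3 was 0.79. The number of arrays also limits the precision. The members and lists were chosen with earlier results of these data known. Alternatives covered background correction, scaling, the filter, outlier spots, probes per gene, the deposited table, blocks and single arrays.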

Additional observations from a re-analysis of the deposited data

Results flagged for a closer look

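Apoc3, an apolipoprotein in the list of liver markers, changed differently in the tissues. The kidney change was 0.59 and the heart change 3.99, a difference of -3.39 (limma interaction, adjusted p = 0.025). In heart it was above background on 3 of 3 knockout but 1 of 3 wild type arrays, so the heart change and the difference are measured largely against background. It entered the heart test through the knockout hearts alone. With wild type hearts set no lower than the lowest signal well above background, the heart change was at least 3.62. The difference between tissues was not tested with that bound. With normexp 0 probes passed for the difference between tissues. With 3 arrays per group, single arrays were not tested as outliers. None of the 8 water and sodium transport genes had arrays apart in opposite directions in kidney and heart.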

How the results depend on the processing

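The kidney differences of Aqp2 (1.01 to 1.46), Aqp4 (1.55 to 2.39 on its brightest probe) and Avpr2 (0.44 to 0.78) stayed above 0 under all alternatives run, and that of Scnn1g stayed below 0 (-0.59 to -0.11). For Aqp2, Aqp4 and Avpr2, leaving out arrays could not turn the sign, because their knockout and wild type kidneys did not overlap. This contrast also chose the genes. Normexp raised the median of all kidney probes from -0.03 to 0.23, so its kidney values are read against that shift. The sign turned for Scnn1a (A_51_P213691) with slide as a block and within slide 2 (both -0.017), for Scnn1b with normexp (0.15) and without knockout kidney b (0.028), for Aqp3 with quantile scaling (0.14) and without knockout b (0.15) or wild type b (0.13), and for Fxyd4 with quantile scaling (0.055) and without wild type b (0.065). In heart it turned for Aqp2 with median scaling (-0.0060) and for Aqp4 A_52_P25710 with normexp (0.085). Leaving out single arrays gave -0.29 to 0.40 for heart Aqp2, and -0.11 to 0.97, -0.72 to 0.87 and -0.12 to 1.01 for heart Aqp4 A_51_P419319, A_52_P25710 and A_52_P625527. The number of members called in heart ran from 0 to 2 when single arrays were left out. The 2 were called without knockout heart c, where the genotype cannot be told apart from the sex.

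The 25 probes called in kidney became 0 with normexp (894 at an unadjusted p under 0.05), 120 with median scaling, 6 with no filter, 14 with slide as a block, 107 in 1 fit over 12 arrays (32 with the spread estimated over all probes) and 2 to 84 without single arrays. The replicate block by letter gave 4, but kidney letters did not pair the arrays (r = 0.15, 0.02 and -0.18). The 123 probes called in heart became 27 with normexp, 73 with quantile scaling, 64 with no filter, 28 with the filter on every array, 223 in 1 fit over 12 arrays (153 with the spread over all probes), 96 with the replicate block and 28 to 3311 without single arrays. The 103 probes called for the difference between tissues became 60 with the spread estimated over all probes, 0 with normexp (1739 at an unadjusted p under 0.05), 301 with median scaling, 49 with no filter, 53 with the filter on every array and 15 to 1615 without single arrays. The alternatives for this difference, and the choice to estimate its spread over the probes tested rather than over all probes, were made after seeing the data and both counts. The cause of these shifts was not tested. No slide block was possible in heart, and no slide needed a random block.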

Other observations

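Liver markers, outside the genes of the report, rose in the knockout hearts: 6 of 7 tested genes passed in limma, all higher, beside 0.47% of all heart probes tested. Of the 6, Apoc3, Cps1 and F2 were above background on 1 of 3 wild type hearts and entered the test through the knockout hearts. Fabp1, a fatty acid binding protein, was at 0.05, 0.68 and 0.57 in knockout and at -3.01, -3.63 and -4.20 in wild type (change 4.05, SE 0.33, adjusted p = 0.008). Apoa2 rose by 3.15 (SE 0.28, adjusted p = 0.011). Without knockout heart a 2 of the 7 passed. In kidney 6 of 6 tested liver markers had the higher mean in knockout, beside 46.6% of all kidney probes, and 0 passed in limma. Their median was 1.01, or 0.57 without knockout kidney a. The groups lay apart for 3, all higher, beside 10.3% of all kidney probes apart in that direction and 11.2% in the other. Apoa2 differed by 3.17 in kidney (SE 0.62, adjusted p = 0.141).

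Aqp8, a water channel, set knockout kidney a apart from b and c, at -1.18, 2.20 and 1.77, with wild type at -0.11 to 0.29. Slc12a3, the sodium-chloride cotransporter of the distal tubule, was at 1.14, 0.21 and 0.15 in knockout and at 2.44, 1.87 and 1.99 in wild type (difference -1.60, SE 0.31, adjusted p = 0.141). Adgre1, a macrophage marker, differed by -1.26 (SE 0.21, adjusted p = 0.107).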
